A study of Homo sapiens with 12 samples.

Results

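Lysosome genes were followed through the knockdown of 2 nuclear RNA- and DNA-binding regulators, PSPC1 and PU.1, in acute myeloid leukemia cell lines. The list held 48 genes chosen by symbol, with no measured value in the rule: 11 proteases, 11 glycan-degrading enzymes, 7 lipid enzymes and lipid-binding cofactors, 4 nucleases and phosphatases, 7 membrane proteins, 5 proton pump subunits and accessory proteins, and the 3 transcription factors TFEB, TFE3 and MITF. All 48 were found among the 60648 genes of the deposited tables. The study asked how PSPC1, a paraspeckle protein, controls transcription in these leukemia cells, and 12 libraries of poly(A) RNA in 6 groups of 2 were used here. In the PSPC1 experiment, MOLM13 cells with a PSPC1 hairpin were set against MOLM13 cells with a control hairpin, and OCIAML5 cells with a PSPC1 hairpin against OCIAML5 cells with a control hairpin. In the PU.1 experiment, OCIAML5 cells with a hairpin against PU.1 (gene SPI1) were set against OCIAML5 cells with a control hairpin of their own. All 12 libraries came from cells infected with lentivirus made in HEK293T cells and then selected with puromycin or sorted for GFP, controls included. MOLM13 cells grew in RPMI medium with serum, and OCIAML5 cells in α-MEM with more serum and GM-CSF, so that line and medium cannot be told apart. How many hairpins were used per target, and how long after infection RNA was taken, is not stated in these sources.

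Lysosomes are acidic organelles that break down protein, glycans, lipids and nucleic acids delivered by endocytosis and autophagy. A V-type ATPase acidifies the lumen, soluble hydrolases work there, and heavily glycosylated membrane proteins such as LAMP1 and LAMP2 line the limiting membrane. Many of these genes carry a short E-box-like element, the CLEAR motif, that TFEB and its relatives TFE3 and MITF bind when they enter the nucleus, an entry that mTORC1 at the lysosome surface restrains by phosphorylation. Phagocytes hold large lysosomal stores, and PU.1 is a master transcription factor of the myeloid lineage.

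To show how such motifs lie at these genes, 4 promoter windows are printed, from 250 bases before to 50 bases after the transcription start as RefSeq places it on GRCh38.p14. They were chosen after the values were seen, because their genes hold the 8-letter CLEAR-type motif and differ in what they did. Capitals mark the letters CACGTG or TCACGTGA and, in the ATP6V0D1 window, also ACTTCCTC, which is GAGGAAGT on the other strand, a PU.1-type motif. The LAMP1 window is chr13:113296989-113297288 on the plus strand, PLD3 is chr19:40348445-40348744 on the plus strand, GAA is chr17:80101331-80101630 on the plus strand and ATP6V0D1 is chr16:67481108-67481407 on the minus strand, each read 5′ to 3′ in the direction of the gene.
LAMP1: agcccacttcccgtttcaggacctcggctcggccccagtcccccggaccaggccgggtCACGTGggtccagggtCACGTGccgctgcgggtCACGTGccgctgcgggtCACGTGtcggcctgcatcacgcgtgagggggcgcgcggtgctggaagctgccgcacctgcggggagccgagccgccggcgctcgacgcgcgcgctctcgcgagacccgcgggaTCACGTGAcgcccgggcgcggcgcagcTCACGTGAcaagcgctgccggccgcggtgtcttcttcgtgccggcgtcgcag
PLD3: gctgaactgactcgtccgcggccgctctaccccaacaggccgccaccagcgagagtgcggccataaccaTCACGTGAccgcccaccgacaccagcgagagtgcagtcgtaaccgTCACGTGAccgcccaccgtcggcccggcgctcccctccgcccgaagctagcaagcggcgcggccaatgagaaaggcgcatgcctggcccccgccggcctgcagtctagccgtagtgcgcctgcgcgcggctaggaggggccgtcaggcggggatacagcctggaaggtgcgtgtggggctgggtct
GAA: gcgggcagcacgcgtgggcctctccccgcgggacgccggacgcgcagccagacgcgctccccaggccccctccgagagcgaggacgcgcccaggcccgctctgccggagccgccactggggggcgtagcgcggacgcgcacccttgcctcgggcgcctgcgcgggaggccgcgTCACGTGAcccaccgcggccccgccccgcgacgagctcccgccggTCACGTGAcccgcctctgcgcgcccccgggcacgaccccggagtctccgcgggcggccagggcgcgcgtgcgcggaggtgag
ATP6V0D1: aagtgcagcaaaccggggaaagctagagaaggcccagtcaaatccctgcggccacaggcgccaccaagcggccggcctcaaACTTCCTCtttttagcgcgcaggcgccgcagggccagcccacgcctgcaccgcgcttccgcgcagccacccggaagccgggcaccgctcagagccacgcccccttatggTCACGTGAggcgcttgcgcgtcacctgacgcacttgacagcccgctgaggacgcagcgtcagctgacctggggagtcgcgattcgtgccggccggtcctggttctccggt
The LAMP1 window holds 6 copies of CACGTG, the PLD3 and GAA windows 2 each and the ATP6V0D1 window 1. Both strands were searched, which for these palindromes is the same search, and CACGTG lies within TCACGTGA. A RefSeq window was matched for 35 of the 48 members. TCACGTGA was present for 6 of these 35 (17.1%), namely CTSA, LAMP1, GAA, PLD3, MCOLN1 and ATP6V0D1, and for 1.18% of the 27305 genes with a window. CACGTG was present for 9 of 35 members (25.7%) and 8.77% of genes, and GAGGAAGT on either strand for 2 of 35 members (5.71%), ACP5 and ATP6V0D1, and 3.15% of genes. The 6 members with TCACGTGA did not move alike after PSPC1 knockdown in MOLM13: PLD3 (log2 fold change 1.54 ± 0.075), LAMP1 (0.61 ± 0.042), ATP6V0D1 (0.56 ± 0.061) and GAA (0.54 ± 0.056) rose, while CTSA (−0.11 ± 0.062) and MCOLN1 (−0.23 ± 0.16) did not pass the test. Matches of letters are descriptions of the windows and do not show binding.

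Libraries held 15.4 to 22.8 M counts in the PSPC1 experiment and 26.3 to 39.7 M in the PU.1 experiment. No label ties the libraries of a group to separate cultures, so p-values measure library-to-library spread, possibly technical. Levels are given as CPM (counts per M counts, M standing for mega) on library sizes scaled by TMM. A log2 fold change is given ± its standard error from edgeR's quasi-likelihood fit. Benjamini-Hochberg adjustment ran over all genes tested, with a threshold of 0.05. A gene is called higher or lower where it passes that threshold. The knocked-down genes moved as labelled: PSPC1 had 27.1 and 27.7 CPM in PSPC1 knockdown MOLM13 cells, against 130.2 and 135 CPM in MOLM13 controls. It had 18.9 and 19.2 CPM in PSPC1 knockdown OCIAML5 cells, against 99.1 and 98.8 CPM in OCIAML5 controls. SPI1 had 47.5 and 46.2 CPM in PU.1 knockdown OCIAML5 cells, against 227 and 204 CPM in their controls. PSPC1 itself fell by 0.89 on the log2 scale after PU.1 knockdown, and SPI1 rose by 0.44 after PSPC1 knockdown in MOLM13 and by 0.13 in OCIAML5. Of the 7 markers listed for these leukemia lines, CD33, PTPRC, SPI1, LYZ, ITGAM and MPO were detected in the controls of both lines, MPO at 37.7 and 35.4 CPM in MOLM13 controls, against 2.07 and 2.09 CPM in OCIAML5 controls. CD34 had 0 counts in both MOLM13 controls and 1.69 and 2.47 CPM in OCIAML5 controls.

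Most of the lysosome genes were higher after PSPC1 knockdown in both lines, each against the controls of its own experiment, and after PU.1 knockdown they split. In MOLM13, 37 of the 45 members tested were called, against 57.2% of all genes. Of these, 30 were higher and 7 lower, against 27.6% of all 16457 genes tested higher and 29.6% lower. In OCIAML5, PSPC1 knockdown gave 36 calls (56.1% of all genes), 27 members higher and 9 lower, against 27.6% higher and 28.6% lower over all genes. After PU.1 knockdown 38 members were called (60.5% of all genes), 23 higher and 15 lower, against 29.5% higher and 30.9% lower of 16861 genes. The median log2 fold change of the members was 0.34 in MOLM13, 0.33 in OCIAML5 and 0.20 after PU.1 knockdown, against 0.006, 0.017 and 0.02 over all genes tested. Members changed at least 2-fold were fewer: 9 rose and 0 fell by that much in MOLM13 (all genes 9.92% and 10.9%), 7 rose and 1 fell in OCIAML5 (9.5% and 9.61%), and 7 rose and 4 fell after PU.1 knockdown (11.1% and 6.33%).

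**Figure D1:**
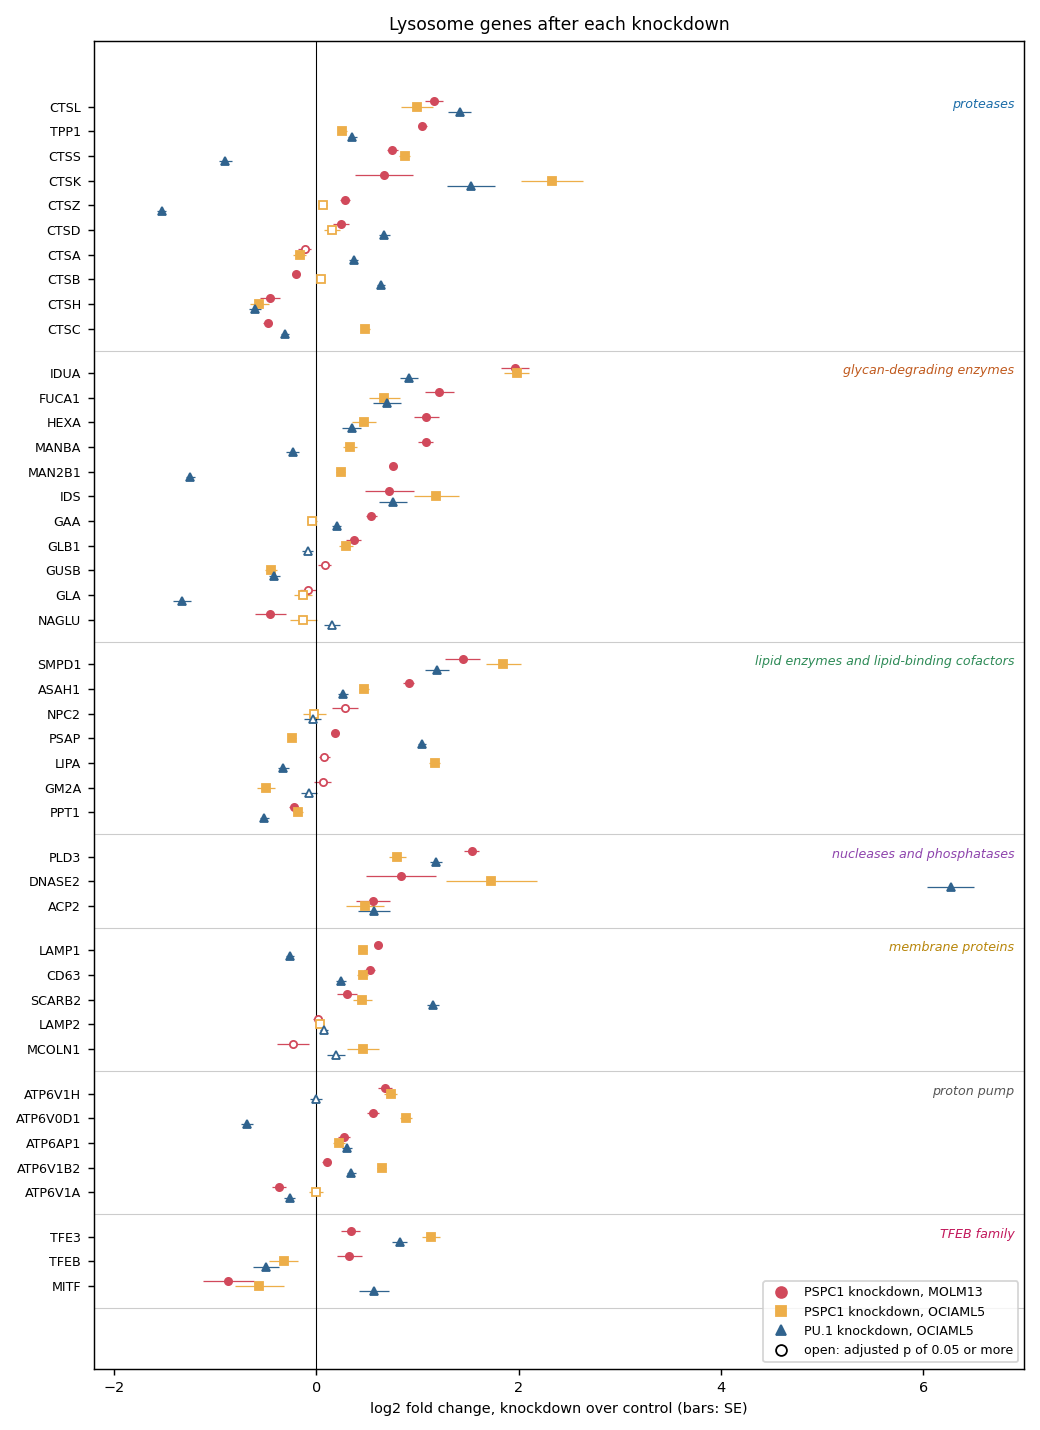
Log2 fold change (x axis) of each tested member, grouped by role down the page, in the 3 knockdowns, with bars for the standard error and open symbols where edgeR's adjusted p is 0.05 or more; GPNMB is left out because it is near 0 in MOLM13. Most points of both PSPC1 knockdowns lie to the right of 0, with medians of 0.34 and 0.33, and DNASE2 after PU.1 knockdown stands farthest out at 6.27.

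After PSPC1 knockdown the summed level rose as well. All 48 members together took 0.529% and 0.527% of counts in PSPC1 knockdown MOLM13 cells, against 0.413% and 0.403% in MOLM13 controls. They took 0.493% and 0.492% in PSPC1 knockdown OCIAML5 cells, against 0.379% and 0.389% in OCIAML5 controls. After PU.1 knockdown the shares were 0.454% and 0.467%, against 0.407% and 0.407% in controls. These are shares of raw counts, and in each of the 3 comparisons both knockdown libraries lay above both controls. On library sizes scaled by TMM the PU.1 difference was small. The sums were 4329 and 4414 CPM in PU.1 knockdown OCIAML5 cells, against 4297 and 4287 CPM in their controls. PSPC1 knockdown gave 5359 and 5307 CPM in MOLM13, against 4289 and 4218 CPM in controls. In OCIAML5 it gave 4675 and 4678 CPM, against 3817 and 3891 CPM in controls. In bulk RNA, fewer cells of a type and less RNA per cell cannot be told apart.

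Members are expressed above most genes, with a median of 62.8 CPM against 15.3 CPM over all genes of the PSPC1 fit. Among genes of at least 5 CPM on average, 27 of 42 members rose in MOLM13 and 7 fell, against 31.6% and 40.3% of such genes. In OCIAML5, 25 of 42 rose and 8 fell (32.3% and 38.6%), and after PU.1 knockdown 22 of 43 rose and 14 fell (30.5% and 43.3%). CD68, ACP5 and LGMN did not pass the filter on low counts in any fit, with 0.33 CPM or less in every library, although CD68 and LGMN are abundant in macrophages. For CD68, 81.7% of the exonic length is shared on the same strand with a read-through gene in GENCODE 29, so its low count is uncertain.

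Leaving out 1 library at a time ended 10 of the 37 calls in MOLM13, 5 of 36 in OCIAML5 and 3 of 38 after PU.1 knockdown, and their values are given with each gene. OCIAML5 has a second control group, from the other experiment. Set against it, PSPC1 knockdown OCIAML5 cells had 22 of 45 members higher and 13 lower with a median of 0.13. With both sets of controls, 21 members were higher and 6 lower. Shares over all genes were not computed for that comparison, so these counts cannot be set beside them. The 2 sets of OCIAML5 controls differed from each other in 26 of 45 members, 16 higher and 10 lower in the PU.1 experiment (all genes 39% called, 20.1% higher and 18.9% lower). What differed between the experiments is not stated, and the cause cannot be told apart.

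Marker genes moved as well. The 7 leukemia line markers summed to 1230 to 1232 CPM in PSPC1 knockdown MOLM13 cells, against 862.2 to 868.8 CPM in MOLM13 controls. They summed to 1064 to 1066 CPM in PSPC1 knockdown OCIAML5 cells, against 746.5 to 769 CPM in OCIAML5 controls. After PU.1 knockdown the sum was 428.6 to 450.7 CPM, against 739.1 to 759.1 CPM in controls. Of these 7 markers, 3 were higher and 1 lower in MOLM13, 3 higher and 2 lower in OCIAML5, and all 7, SPI1 itself among them, lower after PU.1 knockdown. The sum was higher after PSPC1 knockdown in both lines, as most lysosome genes were, but it does not show a shared rise of the 7 markers. Their median log2 fold change was 0.44 in MOLM13, where 1 fell at least 2-fold. In OCIAML5 the median was 0.081, and 2 fell at least 2-fold. The summed level of 12 monocyte and macrophage genes was 162.5 to 168.7 CPM in PSPC1 knockdown MOLM13 cells, against 154.3 to 159.2 CPM in MOLM13 controls. In the other line it was 535.8 to 540.7 CPM in PSPC1 knockdown OCIAML5 cells, against 986.9 to 999.7 CPM in OCIAML5 controls. After PU.1 knockdown it was 6.17 to 6.31 CPM, against 419 to 424 CPM in the controls. The defining genes CD14, CD163, FCGR3A, C1QA, C1QB and VSIG4 were at or near 0 and did not pass the filter. Of the 5 tested, 2 were higher in MOLM13, 4 lower in OCIAML5 and 5 lower after PU.1 knockdown. The 4 azurophil granule genes, which encode serine proteases of neutrophil granules and a related protein, summed to 1933 to 1941 CPM in PSPC1 knockdown MOLM13 cells, against 3529 to 3660 CPM in controls. In OCIAML5 they summed to 7.61 to 9.44 CPM after PSPC1 knockdown, against 4.403 to 5.82 CPM in controls, and to 56.5 to 60.6 CPM after PU.1 knockdown, against 9.7 to 10.96 CPM in controls. Of these 4 genes, 1 was higher and 3 lower in MOLM13, and 3 were higher and 0 lower after PU.1 knockdown. After PSPC1 knockdown in OCIAML5, 1 was higher and 1 lower, with a median log2 fold change of −1.33. There, 2 of the 4 had 0 counts in each knockdown library, so that sum does not show a shared rise. The lysosome genes thus rose in 1 line where the monocyte sum was slightly higher and in the other where it was lower. The part of all these shifts in the lysosome gene values was not tested.

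Several members moved the same way in every knockdown. Of 45 members, 17 (37.8%) were higher in all 3 knockdowns, against 9.66% of the 15396 genes tested in all of them: CTSK, CTSL, TPP1, HEXA, IDS, IDUA, FUCA1, ASAH1, SMPD1, DNASE2, PLD3, ACP2, CD63, SCARB2, ATP6V1B2, ATP6AP1 and TFE3. CTSH and PPT1 were lower in all 3 (4.44%, against 14.4%). In both PSPC1 knockdowns 24 members were higher (53.3%, against 17.7%) and 3 were lower (6.67%, against 21.4%), the third being MITF. Of those 24, 19 kept both calls whichever library was left out, and 15 of the 19 also with the other OCIAML5 controls. CTSS, LAMP1, MANBA, MAN2B1 and ATP6V0D1 were higher in both PSPC1 knockdowns and lower after PU.1 knockdown (11.1%, against 2.99%), while MITF did the reverse (2.22%, against 2.92%). With the other OCIAML5 controls 3 of these 5 kept the pattern, as LAMP1 (0.003) was not called and MAN2B1 (−0.43) was lower. LAMP2 and NPC2 passed in no knockdown (4.44%, against 15.3%). Of the 17 higher in all 3, 11 kept all of their calls whichever library was left out, and 9 of those also with the other OCIAML5 controls, against which CTSL (0.30, edgeR adjusted p = 0.0756) and ATP6AP1 (0.11, edgeR adjusted p = 0.082) did not pass. The other 6 were CTSK, HEXA, DNASE2, ACP2, SCARB2 and ATP6V1B2.

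**Figure D2:**
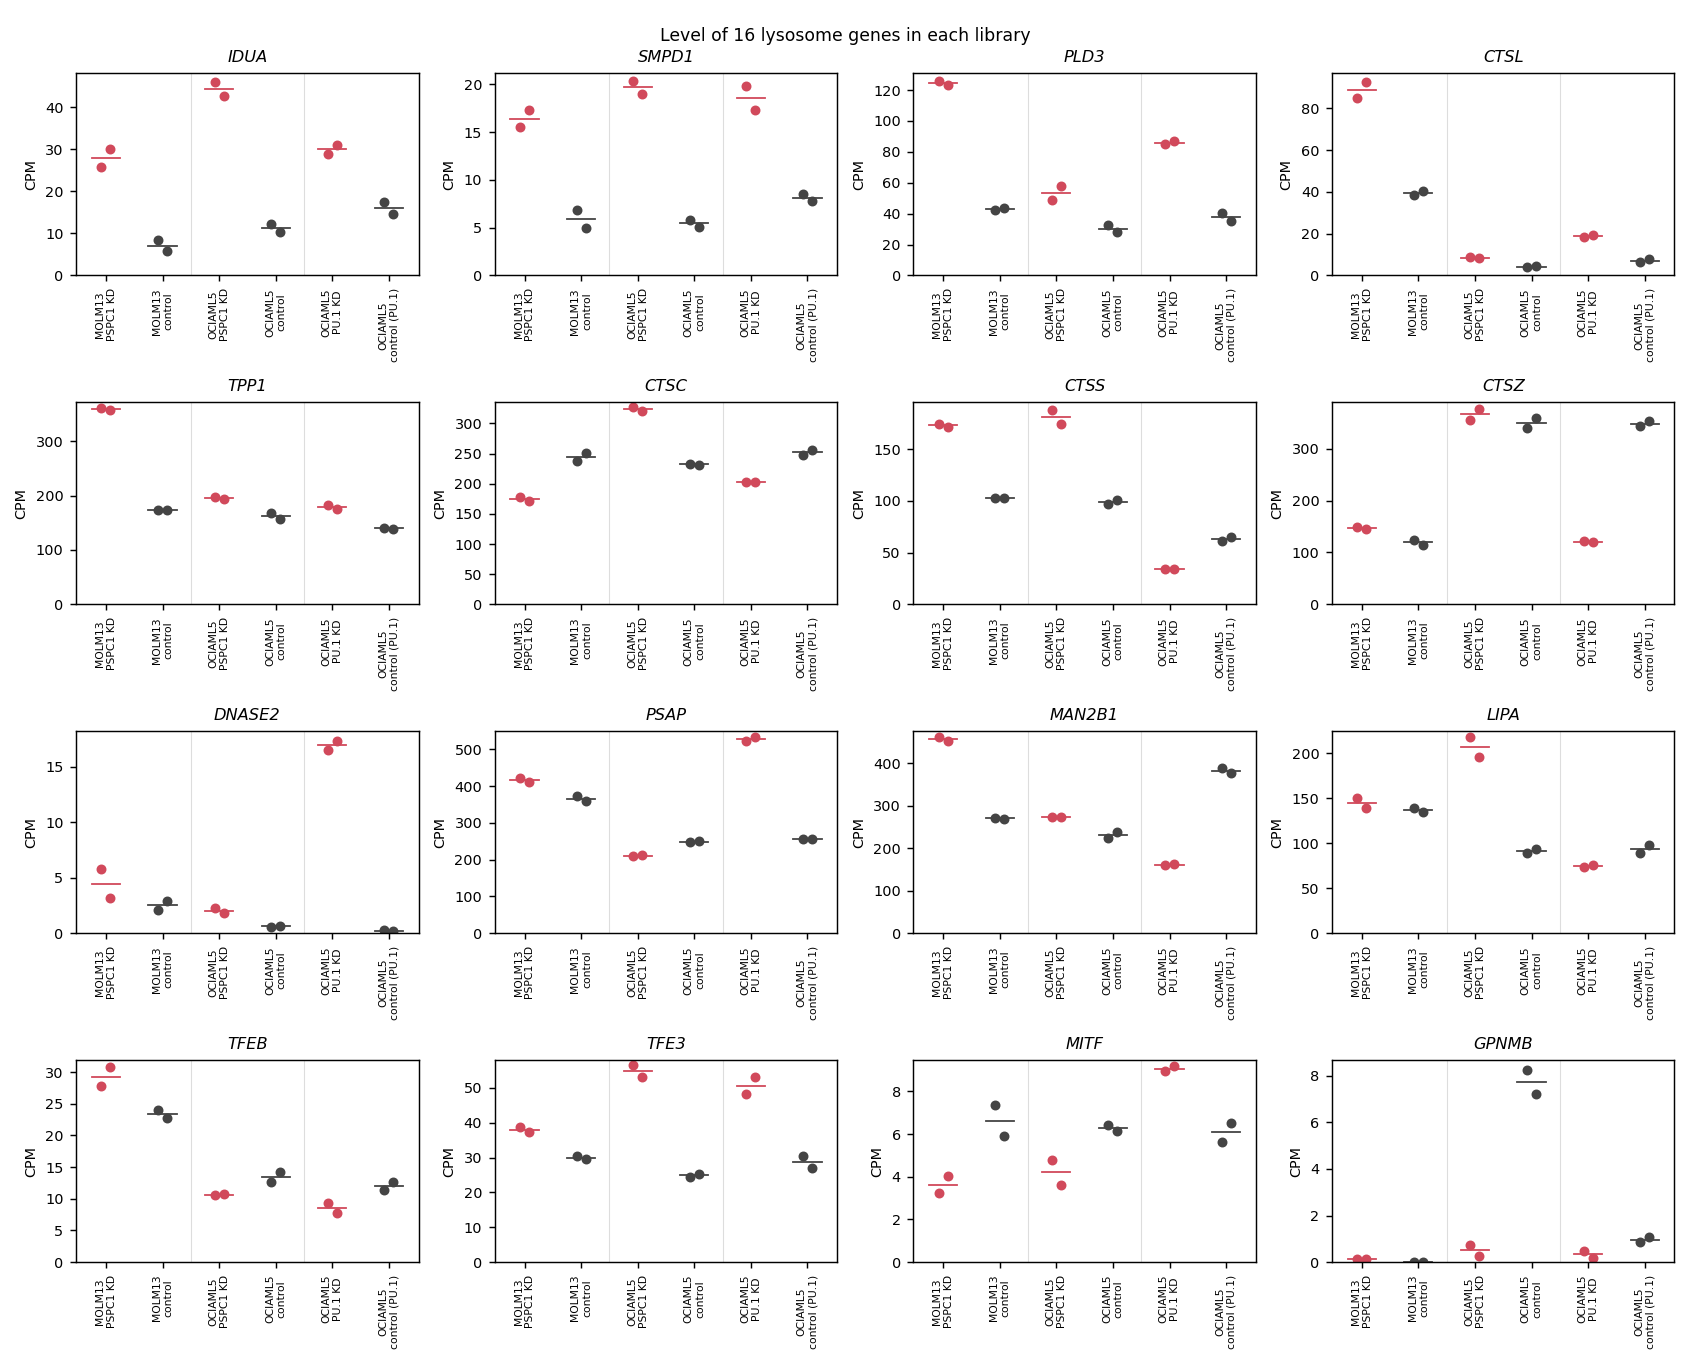
Level in CPM (y axis) of 16 genes, 1 panel each, in each of the 12 libraries, with points for libraries and a bar for the mean of the 2 libraries of a group. IDUA, SMPD1 and PLD3 lie higher in knockdown than in control libraries in all 3 comparisons, CTSS and MAN2B1 are higher after PSPC1 knockdown and lower after PU.1 knockdown, and DNASE2 reaches 16.6 and 17.4 CPM after PU.1 knockdown, against 0.253 and 0.186 CPM in controls.

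Among the proteases, 6 of 10 tested members rose and 3 fell in MOLM13, 5 rose and 2 fell in OCIAML5 after PSPC1 knockdown, and 6 rose and 4 fell after PU.1 knockdown. Counts by role, here and below, stand beside shares of all genes of 27.6% higher and 29.6% lower in MOLM13. Those shares were 27.6% and 28.6% in OCIAML5 after PSPC1 knockdown, and 29.5% and 30.9% after PU.1 knockdown. CTSL, a cysteine endopeptidase, had 84.8 and 92.4 CPM in PSPC1 knockdown MOLM13 cells, against 38.7 and 40.3 CPM in MOLM13 controls (log2 fold change 1.17 ± 0.088, edgeR adjusted p = 2.41e-20). In OCIAML5 it was a low-level transcript, with 8.69 and 8.17 CPM in PSPC1 knockdown OCIAML5 cells, against 4.08 and 4.43 CPM in OCIAML5 controls (log2 fold change 0.99 ± 0.16, edgeR adjusted p = 6.65e-08). CTSL had 18.4 and 19.5 CPM in PU.1 knockdown OCIAML5 cells, against 6.52 and 7.66 CPM in their OCIAML5 controls (log2 fold change 1.42 ± 0.12, edgeR adjusted p = 1.22e-18). No group overlapped its controls. There are 6 annotated CTSL pseudogenes, and its PSPC1 rise in OCIAML5 was not called against the other controls (0.30). TPP1, a tripeptidyl peptidase whose loss causes a neuronal ceroid lipofuscinosis, had 361 and 358 CPM in PSPC1 knockdown MOLM13 cells, against 174 and 173 CPM in MOLM13 controls (log2 fold change 1.05 ± 0.045, edgeR adjusted p = 1.55e-34). It rose less in OCIAML5 (log2 fold change 0.26 ± 0.046 after PSPC1 knockdown and 0.36 ± 0.045 after PU.1 knockdown), with no overlap of groups in any comparison. CTSK, the main collagenase of osteoclasts, had 5.97 and 7.06 CPM in PSPC1 knockdown OCIAML5 cells, against 1.304 and 1.27 CPM in OCIAML5 controls (log2 fold change 2.33 ± 0.31, edgeR adjusted p = 4.6e-10). It had 4.24 and 4.799 CPM in PU.1 knockdown OCIAML5 cells, against 1.33 and 1.78 CPM in their OCIAML5 controls (log2 fold change 1.53 ± 0.24, edgeR adjusted p = 3.08e-08). Both OCIAML5 rises were larger than the spread between libraries. In MOLM13 its log2 fold change was 0.67 ± 0.29 (edgeR adjusted p = 0.0405). That call was lost when any 1 of the 4 MOLM13 libraries was left out (0.56 to 0.75), without either OCIAML5 knockdown library (0.66 each), with DESeq2 or with no low-count filter.

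The antigen-processing protease CTSS changed sign between the regulators. It had 174 and 172 CPM in PSPC1 knockdown MOLM13 cells, against 103 and 102 CPM in MOLM13 controls (log2 fold change 0.75 ± 0.052, edgeR adjusted p = 4.74e-22). In the other line CTSS had 188 and 174 CPM in PSPC1 knockdown OCIAML5 cells, against 97.02 and 101 CPM in OCIAML5 controls (log2 fold change 0.87 ± 0.052, edgeR adjusted p = 1.17e-25). CTSS had 34.5 and 33.7 CPM in PU.1 knockdown OCIAML5 cells, against 61.6 and 65.5 CPM in their OCIAML5 controls (log2 fold change −0.90 ± 0.066, edgeR adjusted p = 1.71e-21). No group overlapped its controls in any of the 3 comparisons. CTSC, the dipeptidyl peptidase that activates granule serine proteases, went opposite ways in the lines. It had 179 and 172 CPM in PSPC1 knockdown MOLM13 cells, against 238 and 251 CPM in MOLM13 controls (log2 fold change −0.48 ± 0.045, edgeR adjusted p = 1.35e-15). By contrast it had 328 and 321 CPM in PSPC1 knockdown OCIAML5 cells, against 233 and 231 CPM in OCIAML5 controls (log2 fold change 0.48 ± 0.044, edgeR adjusted p = 1.85e-16). After PU.1 knockdown CTSC fell (log2 fold change −0.31 ± 0.042, edgeR adjusted p = 4.56e-10). CTSH, an aminopeptidase, fell in each knockdown. It had 28.5 and 25.9 CPM in PSPC1 knockdown MOLM13 cells, against 38 and 36.5 CPM in MOLM13 controls (log2 fold change −0.46 ± 0.098). It had 29.5 and 27.1 CPM in PSPC1 knockdown OCIAML5 cells, against 43.8 and 39.8 CPM in OCIAML5 controls (−0.56 ± 0.095). CTSH had 49 and 50.7 CPM in PU.1 knockdown OCIAML5 cells, against 75.9 and 76.3 CPM in their OCIAML5 controls (−0.61 ± 0.06), again with no overlap. CTSZ, a carboxypeptidase, fell after PU.1 knockdown, with 122 and 119 CPM in PU.1 knockdown OCIAML5 cells, against 343 and 353 CPM in their OCIAML5 controls (log2 fold change −1.53 ± 0.043, edgeR adjusted p = 1.27e-48). PSPC1 knockdown gave 0.29 ± 0.049 in MOLM13 and 0.065 ± 0.044 in OCIAML5, where the groups overlapped.

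CTSB and CTSD, the cysteine and aspartic proteases widely used as lysosomal markers, rose after PU.1 knockdown. CTSB had 415 and 412 CPM in PU.1 knockdown OCIAML5 cells, against 265 and 265 CPM in their OCIAML5 controls (log2 fold change 0.64 ± 0.039, edgeR adjusted p = 6.26e-26). CTSD rose by 0.67 ± 0.056 on the log2 scale. PSPC1 knockdown moved them less. CTSB fell in MOLM13 (log2 fold change −0.20 ± 0.044) and was not called in OCIAML5 (0.045 ± 0.044). CTSD had 0.25 ± 0.078 in MOLM13, no longer called without knockdown replicate 2 (0.19, edgeR adjusted p = 0.103) or control replicate 2 (0.20, edgeR adjusted p = 0.0714). In OCIAML5 CTSD was not called (0.16 ± 0.079) and was lower against the other controls (−0.20, edgeR adjusted p = 0.00715). Annotation shares 41.7% of the exonic length of CTSD with a neighbour on the same strand. CTSA, a carboxypeptidase that also protects lysosomal galactosidase and neuraminidase, was not called in MOLM13 (−0.11 ± 0.062). It fell in OCIAML5 (log2 fold change −0.16 ± 0.062, edgeR adjusted p = 0.0188), a call lost without either knockdown library (−0.18 and −0.16), without control replicate 1 (−0.15), with DESeq2 or with library size alone. It rose after PU.1 knockdown (0.37 ± 0.045). Genes on the opposite strand share 28.5% of the exonic length of CTSA.

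Most glycan-degrading enzymes rose after PSPC1 knockdown. In MOLM13, 8 of 11 rose and 1 fell, in OCIAML5 7 rose and 1 fell, and after PU.1 knockdown 5 rose and 4 fell. The PU.1 counts were 45.5% and 36.4%, against 29.5% and 30.9% of all genes. IDUA, the iduronidase that degrades heparan and dermatan sulfate, had 25.9 and 30.1 CPM in PSPC1 knockdown MOLM13 cells, against 8.36 and 5.795 CPM in MOLM13 controls (log2 fold change 1.96 ± 0.14, edgeR adjusted p = 3.35e-21). It had 46.1 and 42.6 CPM in PSPC1 knockdown OCIAML5 cells, against 12.2 and 10.2 CPM in OCIAML5 controls (log2 fold change 1.98 ± 0.13, edgeR adjusted p = 1.7e-23), nearly the same change as in MOLM13. After PU.1 knockdown IDUA had 28.98 and 31.1 CPM in PU.1 knockdown OCIAML5 cells, against 17.4 and 14.5 CPM in their OCIAML5 controls (log2 fold change 0.92 ± 0.091, edgeR adjusted p = 4.38e-15). The gene (chromosome 4, 986997 to 1004506, plus strand) overlaps SLC26A1 on the opposite strand over 13.3% of its exonic length. SLC26A1 rose as well, by 1.78, 0.51 and 0.87 on the log2 scale in the 3 comparisons. Whether counting used strand is not stated, and the part of such overlaps was not tested. IDS, which removes sulfate from the same glycans, was a low-level transcript with 12.8 and 8.502 CPM in PSPC1 knockdown OCIAML5 cells, against 5.82 and 3.54 CPM in OCIAML5 controls (log2 fold change 1.19 ± 0.22, edgeR adjusted p = 3.57e-06). It was also higher in MOLM13 (0.72 ± 0.24) and after PU.1 knockdown (0.76 ± 0.14), and shares 17.4% of its exonic length on the same strand.

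HEXA, the alpha subunit of hexosaminidase A, had 31.3 and 29.8 CPM in PSPC1 knockdown MOLM13 cells, against 13.8 and 15 CPM in MOLM13 controls (log2 fold change 1.09 ± 0.12, edgeR adjusted p = 1.3e-12), and rose less in OCIAML5 (0.48 ± 0.12 after PSPC1 knockdown). After PU.1 knockdown its log2 fold change was 0.35 ± 0.093, no longer called without knockdown replicate 2 (0.23, edgeR adjusted p = 0.107). FUCA1, the lysosomal fucosidase, had 22.9 and 23.3 CPM in PSPC1 knockdown MOLM13 cells, against 9.77 and 10.1 CPM in MOLM13 controls (log2 fold change 1.22 ± 0.15, edgeR adjusted p = 1.73e-11), with smaller rises in OCIAML5 of 0.67 ± 0.15 after PSPC1 knockdown and 0.70 ± 0.14 after PU.1 knockdown. Both genes thus kept the same direction in every knockdown. The mannosidases did not. MANBA, the beta-mannosidase, had 81.8 and 75.4 CPM in PSPC1 knockdown MOLM13 cells, against 38.3 and 35.7 CPM in MOLM13 controls (log2 fold change 1.08 ± 0.075, edgeR adjusted p = 2.73e-22), and 0.33 ± 0.071 in OCIAML5. After PU.1 knockdown MANBA fell (log2 fold change −0.23 ± 0.065, edgeR adjusted p = 0.0012), which library size alone did not call (−0.081, edgeR adjusted p = 0.29).

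MAN2B1, the lysosomal alpha-mannosidase, had 461 and 453 CPM in PSPC1 knockdown MOLM13 cells, against 271 and 269 CPM in MOLM13 controls (log2 fold change 0.76 ± 0.042, edgeR adjusted p = 8.88e-28). OCIAML5 showed a smaller rise, with 273 and 275 CPM in PSPC1 knockdown OCIAML5 cells, against 224 and 239 CPM in OCIAML5 controls (log2 fold change 0.24 ± 0.043, edgeR adjusted p = 9.45e-07). MAN2B1 had 161 and 163 CPM in PU.1 knockdown OCIAML5 cells, against 389 and 377 CPM in their OCIAML5 controls (log2 fold change −1.24 ± 0.041, edgeR adjusted p = 2.43e-43), a fall with no overlap. The OCIAML5 rise depends on the controls, since against those of the PU.1 experiment MAN2B1 was lower after PSPC1 knockdown (−0.43, edgeR adjusted p = 6.41e-13). MAN2B1 shares 21.2% of its exonic length with neighbours on the same strand. GLA, the alpha-galactosidase deficient in Fabry disease, fell after PU.1 knockdown, with 14.04 and 16.4 CPM in PU.1 knockdown OCIAML5 cells, against 35.6 and 41.1 CPM in their OCIAML5 controls (log2 fold change −1.33 ± 0.087, edgeR adjusted p = 6.06e-24). PSPC1 knockdown left it uncalled in both lines (−0.083 ± 0.077 in MOLM13 and −0.13 ± 0.089 in OCIAML5). GAA, the acid glucosidase of glycogen breakdown, rose in MOLM13 (0.54 ± 0.056) and after PU.1 knockdown (0.20 ± 0.045) and was not called in OCIAML5 after PSPC1 knockdown (−0.041 ± 0.053). GLB1, the beta-galactosidase, rose in both PSPC1 knockdowns (0.37 ± 0.075 and 0.30 ± 0.07) and was not called after PU.1 knockdown (−0.086 ± 0.056).

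GUSB, the beta-glucuronidase often used as a reference transcript, fell in OCIAML5, where it had 77.98 and 79.2 CPM in PSPC1 knockdown OCIAML5 cells, against 103 and 111 CPM in OCIAML5 controls (log2 fold change −0.45 ± 0.062, edgeR adjusted p = 1.91e-09). It also fell after PU.1 knockdown (−0.41 ± 0.05), and 12 pseudogenes are annotated for it. In MOLM13 it was not called (0.084 ± 0.065). NAGLU, which acts on heparan sulfate, had 9.16 and 9.85 CPM in PSPC1 knockdown MOLM13 cells, against 13.2 and 12.8 CPM in MOLM13 controls (log2 fold change −0.45 ± 0.16, edgeR adjusted p = 0.00953). That fall was no longer called without knockdown replicate 1 (−0.41, edgeR adjusted p = 0.0626). NAGLU was called neither in OCIAML5 after PSPC1 knockdown (−0.13 ± 0.14) nor after PU.1 knockdown (0.16 ± 0.081), and shares 12.6% of its exonic length on the same strand.

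The lipid enzymes and cofactors were mixed, with 3 of 7 higher and 1 lower in MOLM13, 3 higher and 3 lower in OCIAML5 after PSPC1 knockdown, and 3 higher and 2 lower after PU.1 knockdown. The PU.1 counts were 42.9% and 28.6%, against 29.5% and 30.9% of all genes. SMPD1, the acid sphingomyelinase that makes ceramide, had 15.5 and 17.3 CPM in PSPC1 knockdown MOLM13 cells, against 6.896 and 4.96 CPM in MOLM13 controls (log2 fold change 1.45 ± 0.17, edgeR adjusted p = 1.19e-11). In OCIAML5 it had 20.4 and 18.95 CPM in PSPC1 knockdown OCIAML5 cells, against 5.76 and 5.12 CPM in OCIAML5 controls (log2 fold change 1.85 ± 0.17, edgeR adjusted p = 8.15e-16). SMPD1 had 19.8 and 17.4 CPM in PU.1 knockdown OCIAML5 cells, against 8.49 and 7.74 CPM in their OCIAML5 controls (log2 fold change 1.20 ± 0.12, edgeR adjusted p = 1.67e-15). In each comparison both knockdown libraries lay above both controls. ASAH1, the acid ceramidase that acts on the product of SMPD1, also rose in each (log2 fold changes 0.91 ± 0.051, 0.48 ± 0.05 and 0.27 ± 0.049). PPT1, a thioesterase that removes fatty acids from proteins, fell in each knockdown. It had 178 and 189.7 CPM in PSPC1 knockdown MOLM13 cells, against 216 and 214 CPM in MOLM13 controls (log2 fold change −0.22 ± 0.047). It had 160.2 and 163 CPM in PSPC1 knockdown OCIAML5 cells, against 179 and 186 CPM in OCIAML5 controls (−0.18 ± 0.047). PPT1 had 147 and 151 CPM in PU.1 knockdown OCIAML5 cells, against 206 and 218 CPM in their OCIAML5 controls (−0.51 ± 0.044). Its groups did not overlap. However, 23.4% of its exonic length lies opposite CAP1, which was not called in MOLM13 (−0.014) and was lower in OCIAML5 (−0.15) and after PU.1 knockdown (−0.61). The OCIAML5 fall of PPT1 was not called with library size alone (−0.098, edgeR adjusted p = 0.072).

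LIPA, the acid lipase that releases cholesterol from lipoproteins, rose in OCIAML5, where it had 217 and 195 CPM in PSPC1 knockdown OCIAML5 cells, against 89.6 and 94.02 CPM in OCIAML5 controls (log2 fold change 1.17 ± 0.054, edgeR adjusted p = 4.46e-32). It was not called in MOLM13, with 150.2 and 139 CPM in PSPC1 knockdown MOLM13 cells, against 139 and 135 CPM in MOLM13 controls (log2 fold change 0.078 ± 0.053, edgeR adjusted p = 0.215). After PU.1 knockdown LIPA fell (log2 fold change −0.33 ± 0.055, edgeR adjusted p = 2.12e-07). Its exons touch the interferon-induced gene IFIT2 on the opposite strand over 1.3% of their length, and IFIT2 rose by 2.09, 3.48 and 2.52 in the 3 comparisons. PSAP, the precursor of the saposins that present sphingolipids to their enzymes, had 522 and 533 CPM in PU.1 knockdown OCIAML5 cells, against 257 and 255 CPM in their OCIAML5 controls (log2 fold change 1.04 ± 0.039, edgeR adjusted p = 1.22e-39). PSPC1 knockdown moved it less and in opposite directions. PSAP had 422 and 410.1 CPM in PSPC1 knockdown MOLM13 cells, against 373 and 358 CPM in MOLM13 controls (log2 fold change 0.19 ± 0.041, edgeR adjusted p = 7.59e-05). It had 209 and 213 CPM in PSPC1 knockdown OCIAML5 cells, against 249 and 249.8 CPM in OCIAML5 controls (log2 fold change −0.24 ± 0.043, edgeR adjusted p = 1.06e-06). GM2A, the cofactor of HEXA, had 30.3 and 28.4 CPM in PSPC1 knockdown OCIAML5 cells, against 41.9 and 40.9 CPM in OCIAML5 controls (log2 fold change −0.50 ± 0.087, edgeR adjusted p = 1.02e-06). That fall was not called against the other controls (−0.017, edgeR adjusted p = 0.872), and GM2A was called neither in MOLM13 (0.065 ± 0.083) nor after PU.1 knockdown (−0.073 ± 0.077). NPC2, the soluble cholesterol carrier, passed in no knockdown, with 0.28 ± 0.13 (edgeR adjusted p = 0.0532) in MOLM13.

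All 3 tested nucleases and phosphatases rose in all 3 knockdowns, against 9.66% of the genes tested in all of them. PLD3, a lysosomal exonuclease of single-stranded nucleic acids, had 126 and 123 CPM in PSPC1 knockdown MOLM13 cells, against 42.2 and 43.8 CPM in MOLM13 controls (log2 fold change 1.54 ± 0.075, edgeR adjusted p = 6.21e-30). It had 48.8 and 57.6 CPM in PSPC1 knockdown OCIAML5 cells, against 32.8 and 27.8 CPM in OCIAML5 controls (log2 fold change 0.80 ± 0.083, edgeR adjusted p = 9.69e-14). PLD3 had 85.2 and 86.9 CPM in PU.1 knockdown OCIAML5 cells, against 40.5 and 35.4 CPM in their OCIAML5 controls (log2 fold change 1.19 ± 0.063, edgeR adjusted p = 7.73e-30). The rise was larger than the spread between libraries each time. DNASE2, the acid endonuclease that degrades engulfed DNA (chromosome 19, 12875211 to 12881468, minus strand), had 16.6 and 17.4 CPM in PU.1 knockdown OCIAML5 cells, against 0.253 and 0.186 CPM in their OCIAML5 controls (log2 fold change 6.27 ± 0.24, edgeR adjusted p = 1.39e-39), the largest change of any member after PU.1 knockdown. The control value rests on 7 or 8 counts per library. After PSPC1 knockdown it stayed a low-level transcript. DNASE2 had 5.8 and 3.16 CPM in PSPC1 knockdown MOLM13 cells, against 2.101 and 2.93 CPM in MOLM13 controls (log2 fold change 0.84 ± 0.35, edgeR adjusted p = 0.0345). It had 2.26 and 1.83 CPM in PSPC1 knockdown OCIAML5 cells, against 0.544 and 0.696 CPM in OCIAML5 controls (log2 fold change 1.73 ± 0.45, edgeR adjusted p = 0.000671). Its MOLM13 call was lost without knockdown replicate 1 (0.34, edgeR adjusted p = 0.588) or control replicate 1 (0.60, edgeR adjusted p = 0.255), with DESeq2 and with a replicate block. ACP2, a lysosomal acid phosphatase, rose by 0.56 ± 0.17 in MOLM13, 0.49 ± 0.19 in OCIAML5 after PSPC1 knockdown and 0.57 ± 0.16 after PU.1 knockdown. Leaving out 1 library ended these calls in MOLM13 (0.42 and 0.43 without either second replicate), in OCIAML5 (0.40 without knockdown replicate 1 and 0.34 without control replicate 2) and after PU.1 knockdown (0.44 without knockdown replicate 1, edgeR adjusted p = 0.0501).

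Of the membrane proteins, 4 of 6 rose and 0 fell in MOLM13, 4 rose and 1 fell in OCIAML5 after PSPC1 knockdown, and 2 rose and 2 fell after PU.1 knockdown. The PU.1 counts, 33.3% each way, were close to the 29.5% and 30.9% of all genes. The paired coat proteins LAMP1 and LAMP2 parted. LAMP1 had 407 and 410.3 CPM in PSPC1 knockdown MOLM13 cells, against 266 and 269.6 CPM in MOLM13 controls (log2 fold change 0.61 ± 0.042, edgeR adjusted p = 1.52e-22). In OCIAML5 LAMP1 had 296 and 307 CPM in PSPC1 knockdown OCIAML5 cells, against 219 and 220.3 CPM in OCIAML5 controls (log2 fold change 0.46 ± 0.042, edgeR adjusted p = 5.96e-16). LAMP2 was called in neither line (0.014 ± 0.042 and 0.032 ± 0.045). After PU.1 knockdown LAMP1 fell (log2 fold change −0.26 ± 0.04, edgeR adjusted p = 4.9e-08) and LAMP2 was not called (0.079 ± 0.042). The OCIAML5 rise of LAMP1 was absent against the other controls (0.003, edgeR adjusted p = 0.957), where LAMP2 was lower (−0.20, edgeR adjusted p = 0.000158). CD63, a tetraspanin of lysosomes and exosomes, rose by 0.53 ± 0.054, 0.46 ± 0.056 and 0.24 ± 0.05. SCARB2, the sorting receptor of glucocerebrosidase, had 95.96 and 97.2 CPM in PU.1 knockdown OCIAML5 cells, against 42.2 and 44.8 CPM in their OCIAML5 controls (log2 fold change 1.15 ± 0.059, edgeR adjusted p = 7.3e-31). It also rose after PSPC1 knockdown in MOLM13 (0.30 ± 0.098), not called without knockdown replicate 1 (0.25, edgeR adjusted p = 0.0752) or control replicate 2 (0.27, edgeR adjusted p = 0.0537). It rose in OCIAML5 (0.45 ± 0.094), not called against the other controls (0.006).

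MCOLN1, the calcium channel of the lysosome membrane, was higher in OCIAML5 after PSPC1 knockdown, with 12.7 and 15.7 CPM in PSPC1 knockdown OCIAML5 cells, against 9.46 and 11.1 CPM in OCIAML5 controls (log2 fold change 0.46 ± 0.16, edgeR adjusted p = 0.00996). That call was lost without knockdown replicate 2 (0.31) or control replicate 1 (0.34) and turned to a fall against the other controls (−0.55, edgeR adjusted p = 5.14e-05). MCOLN1 was called neither in MOLM13 (−0.23 ± 0.16) nor after PU.1 knockdown (0.19 ± 0.09). GPNMB, a glycoprotein that marks lysosomal stress in macrophages, was listed with 2 and 2 counts in PSPC1 knockdown MOLM13 cells and 0 and 0 counts in MOLM13 controls. A count of 0 allows up to 0.0776 CPM over that group, so no fold is given although the test passed (edgeR adjusted p = 0.0441). Its MOLM13 call was lost without any 1 of the 4 MOLM13 libraries, and without GPNMB the members called higher in MOLM13 were 29 and the membrane proteins 3. In OCIAML5 it had 0.752 and 0.278 CPM in PSPC1 knockdown OCIAML5 cells, against 8.26 and 7.21 CPM in OCIAML5 controls (log2 fold change −3.83 ± 0.43, edgeR adjusted p = 1.35e-12). The controls of the PU.1 experiment held 0.855 and 1.09 CPM, and against them GPNMB was not called (−0.79, edgeR adjusted p = 0.119), so that the high value belongs to 1 control group. After PU.1 knockdown it had 0.472 and 0.195 CPM in PU.1 knockdown OCIAML5 cells, against 0.855 and 1.09 CPM in their OCIAML5 controls (log2 fold change −1.59 ± 0.53, edgeR adjusted p = 0.00682), not called without knockdown replicate 2 (−1.05) or control replicate 2 (−1.41).

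Most proton pump members were higher after PSPC1 knockdown, and after PU.1 knockdown they were called both ways. In MOLM13, 4 of 5 rose and 1 fell, in OCIAML5 4 rose and 0 fell, and after PU.1 knockdown 2 rose and 2 fell. With 5 members, the PU.1 counts (40% each way) cannot be set apart from the 29.5% and 30.9% of all genes. ATP6V0D1, which joins the membrane and cytosolic sectors, had 102 and 106 CPM in PSPC1 knockdown MOLM13 cells, against 71.9 and 69.6 CPM in MOLM13 controls (log2 fold change 0.56 ± 0.061, edgeR adjusted p = 3.92e-13). In OCIAML5 it had 135 and 137 CPM in PSPC1 knockdown OCIAML5 cells, against 72.1 and 75.2 CPM in OCIAML5 controls (log2 fold change 0.89 ± 0.059, edgeR adjusted p = 4.88e-23). After PU.1 knockdown it had 50.9 and 52.1 CPM in PU.1 knockdown OCIAML5 cells, against 84.3 and 81.2 CPM in their OCIAML5 controls (log2 fold change −0.68 ± 0.059, edgeR adjusted p = 5.59e-18), the opposite direction. ATP6V1H, the regulatory subunit, rose in both PSPC1 knockdowns (0.68 ± 0.065 and 0.74 ± 0.066) and was not called after PU.1 knockdown (−0.004 ± 0.062). ATP6V1B2, a subunit of the catalytic head, had 282 and 297 CPM in PSPC1 knockdown OCIAML5 cells, against 183 and 187 CPM in OCIAML5 controls (log2 fold change 0.65 ± 0.044, edgeR adjusted p = 1.19e-22), and 0.35 ± 0.044 after PU.1 knockdown. Its small MOLM13 rise (0.10 ± 0.042, edgeR adjusted p = 0.0309) was lost without knockdown replicate 1 (0.055), without either control library (0.114 and 0.069) or without either OCIAML5 knockdown library (0.095 and 0.096). ATP6V1A, the catalytic subunit, had 52.2 and 49.6 CPM in PSPC1 knockdown MOLM13 cells, against 64.9 and 66.7 CPM in MOLM13 controls (log2 fold change −0.37 ± 0.071, edgeR adjusted p = 5.69e-06). It was not called in OCIAML5 (−0.002 ± 0.066) and fell after PU.1 knockdown (−0.26 ± 0.054), which library size alone did not call (−0.11). ATP6AP1, an accessory protein of assembly, rose in each (0.27 ± 0.058, 0.22 ± 0.058 and 0.30 ± 0.05).

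The 3 transcription factors did not move together. TFE3 (chromosome X, 49028726 to 49043486, minus strand) had 38.8 and 37.3 CPM in PSPC1 knockdown MOLM13 cells, against 30.4 and 29.5 CPM in MOLM13 controls (log2 fold change 0.34 ± 0.093, edgeR adjusted p = 0.00105). It had 56.4 and 53.1 CPM in PSPC1 knockdown OCIAML5 cells, against 24.5 and 25.4 CPM in OCIAML5 controls (log2 fold change 1.14 ± 0.091, edgeR adjusted p = 7.46e-19). TFE3 had 48.1 and 52.98 CPM in PU.1 knockdown OCIAML5 cells, against 30.5 and 26.9 CPM in their OCIAML5 controls (log2 fold change 0.82 ± 0.072, edgeR adjusted p = 1.89e-17). TFE3 was thus higher in every knockdown with no overlap between groups. TFEB (chromosome 6, 41683978 to 41736259, minus strand) had 27.8 and 30.8 CPM in PSPC1 knockdown MOLM13 cells, against 24.02 and 22.7 CPM in MOLM13 controls (log2 fold change 0.33 ± 0.12, edgeR adjusted p = 0.0178). It had 10.6 and 10.8 CPM in PSPC1 knockdown OCIAML5 cells, against 12.6 and 14.2 CPM in OCIAML5 controls (log2 fold change −0.32 ± 0.14, edgeR adjusted p = 0.0431). TFEB had 9.36 and 7.78 CPM in PU.1 knockdown OCIAML5 cells, against 11.3 and 12.7 CPM in their OCIAML5 controls (log2 fold change −0.50 ± 0.13, edgeR adjusted p = 0.000535). It was therefore higher in 1 comparison and lower in 2. Both PSPC1 calls of TFEB depended on single libraries. The MOLM13 rise was lost without knockdown replicate 2 (0.24) or either control (0.36 and 0.27). The OCIAML5 fall was lost without either knockdown library (−0.31 and −0.34), without control replicate 2 (−0.25), with DESeq2 (adjusted p = 0.0774) or against the other controls (−0.12). MITF (chromosome 3, 69739435 to 69968337, plus strand), at a low level, had 3.23 and 4.04 CPM in PSPC1 knockdown MOLM13 cells, against 7.35 and 5.91 CPM in MOLM13 controls (log2 fold change −0.87 ± 0.25, edgeR adjusted p = 0.00192). It had 4.803 and 3.61 CPM in PSPC1 knockdown OCIAML5 cells, against 6.41 and 6.13 CPM in OCIAML5 controls (log2 fold change −0.56 ± 0.24, edgeR adjusted p = 0.0394). MITF had 8.96 and 9.18 CPM in PU.1 knockdown OCIAML5 cells, against 5.64 and 6.52 CPM in their OCIAML5 controls (log2 fold change 0.57 ± 0.15, edgeR adjusted p = 0.000526). It fell after PSPC1 knockdown and rose after PU.1 knockdown. The MOLM13 call was lost without control replicate 1 (−0.71, edgeR adjusted p = 0.0503), and the OCIAML5 call without knockdown replicate 2 (−0.39) or either control (−0.54 and −0.60), with DESeq2 (adjusted p = 0.0886), with library size alone (−0.48) and with no low-count filter (−0.57). These are transcript levels, and the location of the proteins was not measured here.

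The PSPC1 effect differed between the lines for 24 of the 45 members when the difference itself was tested in edgeR, against 30.7% of all genes. The effect was higher in MOLM13 for 15 and lower for 9, against 12.5% and 18.2%. The median difference of the members, MOLM13 minus OCIAML5, was 0.051, against −0.061 over all genes. Of the glycan-degrading enzymes, 6 of 11 had a higher effect in MOLM13 and 0 a lower one, and of the proton pump members 0 had a higher and 3 of 5 a lower one. TPP1 rose more in MOLM13 (difference 0.79 ± 0.064, edgeR adjusted p = 1.07e-17), as did MANBA (0.75 ± 0.10), PLD3 (0.73 ± 0.11), HEXA (0.61 ± 0.17) and GAA (0.59 ± 0.077). LIPA (difference −1.09 ± 0.076, edgeR adjusted p = 5.62e-21), CTSK (−1.66 ± 0.43), TFE3 (−0.79 ± 0.13) and ATP6V1B2 (−0.54 ± 0.061) rose more in OCIAML5. CTSC (−0.96 ± 0.063), PSAP (0.43 ± 0.059) and TFEB (0.65 ± 0.19) were called in opposite directions. With GPNMB, whose MOLM13 call rests on 2 and 2 counts against 0 and 0, that makes 4 members (8.89%, against 3.85% of genes). MCOLN1 had a difference of −0.69 ± 0.22 that was no longer called without knockdown replicate 1 of MOLM13 (−0.59), knockdown replicate 2 of OCIAML5 (−0.54) or control replicate 1 of OCIAML5 (−0.58). IDUA, SMPD1 and CTSL, 3 of the strongest responders, showed no called difference (−0.018 ± 0.20, −0.40 ± 0.25 and 0.17 ± 0.19), which does not show that the effects were equal. The azurophil granule and monocyte sums given above also moved differently in the lines, and their part in these differences was not tested.

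**Figure D3:**
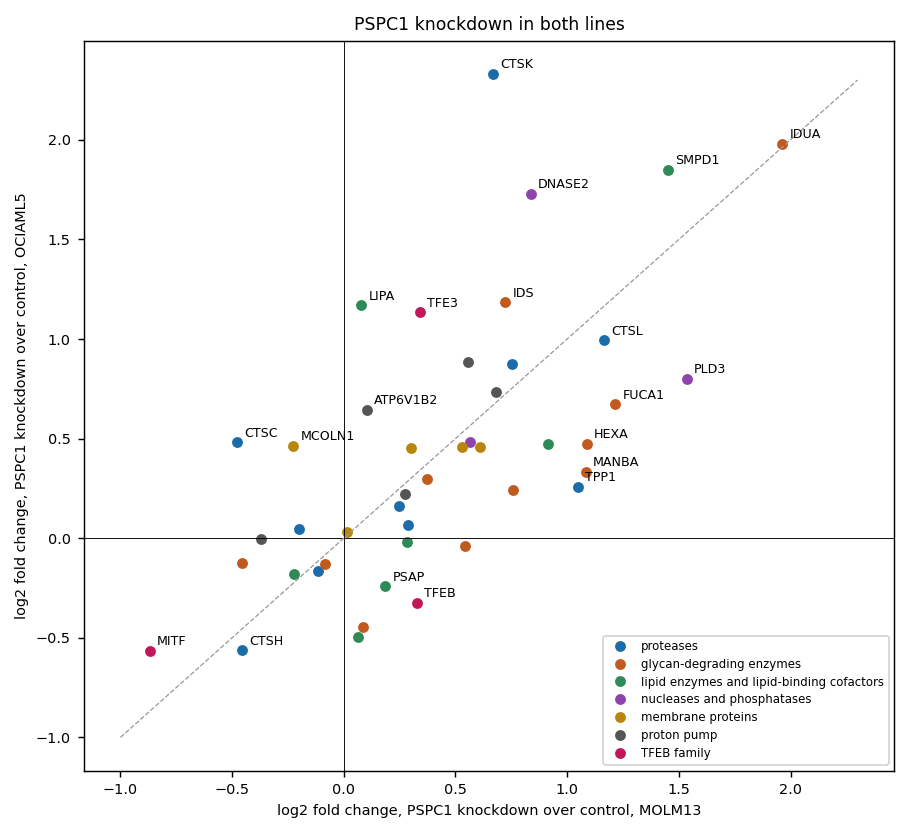
Log2 fold change after PSPC1 knockdown in MOLM13 (x axis) against that in OCIAML5 (y axis), 1 point per tested member, GPNMB left out, with a dashed line of equal change. LIPA and CTSK lie far above the line (differences of −1.09 and −1.66), TPP1 and MANBA below it (0.79 and 0.75), and IDUA lies on it at 1.96 and 1.98.

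In OCIAML5 the 2 knockdowns share no library, and each was set against controls of its own. PU.1 and PSPC1 knockdown gave the same call for 22 of 45 members (48.9%, against 32.6% of all genes) and opposite calls for 10 (22.2%, against 9.96%): CTSA, CTSC, CTSS, LAMP1, MANBA, MAN2B1, LIPA, PSAP, MITF and ATP6V0D1. Not all of these hold. Against the other OCIAML5 controls LAMP1 (0.003) was not called after PSPC1 knockdown and MAN2B1 (−0.43) was lower. The PSPC1 calls of CTSA and MITF were lost without single libraries and with DESeq2. The PU.1 call of MANBA was lost with library size alone (−0.081). In the test of the difference, PU.1 minus PSPC1, 30 members were called, against 45.6% of all genes. Of these 11 were higher and 19 lower, against 22.7% and 22.9%, with a median of −0.15 against 0.001. The widest gap in the positive direction was DNASE2 (4.54 ± 0.58, edgeR adjusted p = 2.55e-09). Among members of at least 5 CPM in some group, GPNMB (2.25 ± 0.65) came next, with its high value in the controls of the PSPC1 experiment alone. Then followed PSAP (1.30 ± 0.06), MITF (1.15 ± 0.27), SCARB2 (0.71 ± 0.10) and CTSB (0.62 ± 0.061). In the negative direction stood CTSS (−1.76 ± 0.083, edgeR adjusted p = 4.94e-25), CTSZ (−1.58 ± 0.062), ATP6V0D1 (−1.55 ± 0.082), LIPA (−1.48 ± 0.08), MAN2B1 (−1.47 ± 0.062) and GLA (−1.18 ± 0.14). Of the proton pump members 0 were higher and 4 of 5 lower, and of the nucleases and phosphatases 2 of 3 were higher. Among those pump members, ATP6V1A was no longer called with library size alone (−0.19) or no low-count filter (−0.27). Its call was also lost without some of the single libraries (−0.17 to −0.22). TPP1 (0.11 ± 0.067), HEXA (−0.11 ± 0.15), FUCA1 (0.042 ± 0.20) and TFEB (−0.15 ± 0.20) showed no called difference. The monocyte and macrophage sum fell to 6.17 to 6.31 CPM in PU.1 knockdown cells, against 419 to 424 CPM in their controls, and mast cell and basophil genes summed to 10.1 to 12.5 CPM, against 2.17 to 2.34 CPM. The part of those shifts in the members' values was not tested.

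**Figure D4:**
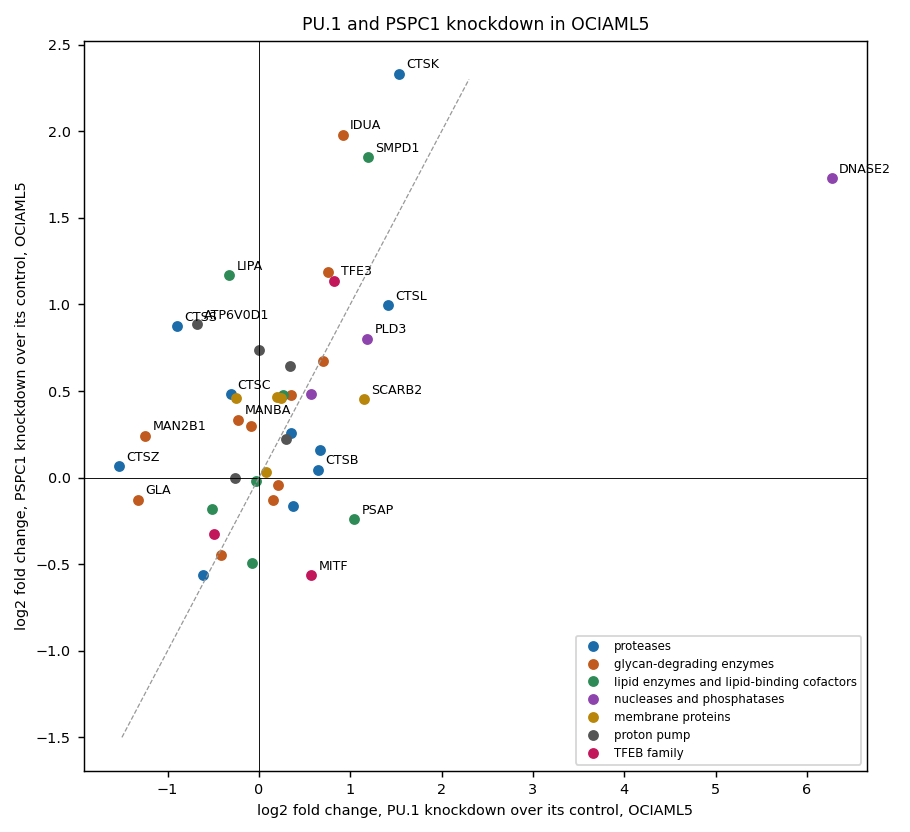
Log2 fold change after PU.1 knockdown (x axis) against that after PSPC1 knockdown (y axis) in OCIAML5, 1 point per tested member, GPNMB left out. CTSS, MAN2B1, LIPA and ATP6V0D1 lie in the upper left quadrant, PSAP and CTSA in the lower right, and DNASE2 far to the right at 6.27.

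The lines differed before any knockdown. Of the 45 members, 32 differed between MOLM13 and OCIAML5 controls of the PSPC1 experiment, against 60.7% of all genes. In MOLM13, 20 were higher and 12 lower, against 30% and 30.7%. Among members with counts in both lines CTSL differed most, with 38.7 and 40.3 CPM in MOLM13 controls, against 4.08 and 4.43 CPM in OCIAML5 controls (log2 fold change 3.22 ± 0.13, edgeR adjusted p = 9.05e-37). GLA (1.15 ± 0.083), LAMP2 (0.99 ± 0.044), ATP6V1B2 (0.91 ± 0.044), ACP2 (0.87 ± 0.18) and TFEB (0.81 ± 0.13) were also higher in MOLM13 controls. CTSZ was the reverse, with 124 and 115 CPM in MOLM13 controls, against 340.4 and 359 CPM in OCIAML5 controls (log2 fold change −1.55 ± 0.047, edgeR adjusted p = 1.4e-44), followed by NPC2 (−0.90 ± 0.12), GAA (−0.80 ± 0.055), MANBA (−0.68 ± 0.076) and IDUA (−0.65 ± 0.15). GPNMB had 0 counts in both MOLM13 controls and 8.26 and 7.21 CPM in OCIAML5 controls.

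Levels per kilobase used the joined exons of all annotated transcripts of a gene in GENCODE 29. That length can exceed that of the transcripts expressed, so the order of different genes is rough. TPP1, for example, has 6544 exonic bases in a gene of 6723. On this scale the leading members in MOLM13 controls were PSAP (113 ± 3.30 CPM per kb, SD, n = 2), LAMP2 (66.4 ± 1.40), CTSZ (58.7 ± 3.30), MAN2B1 (50.3 ± 0.21) and CD63 (48.7 ± 3.90). In OCIAML5 controls of the PSPC1 experiment CTSZ led (172 ± 6.60), before PSAP (76.9 ± 0.28) and MAN2B1 (43.1 ± 1.90). MAN2B1 and CD63 lay within the spread of each other in MOLM13. The 3 factors stood below these leading members, but not below every member. HEXA, for example, had 1.14 ± 0.068 CPM per kb in MOLM13 and 1.48 ± 0.15 in OCIAML5, below TFE3 and TFEB. TFE3 had 6.99 ± 0.14 CPM per kb in MOLM13 and 5.82 ± 0.14 in OCIAML5, TFEB 4.14 ± 0.17 and 2.37 ± 0.19, and MITF 0.924 ± 0.14 and 0.874 ± 0.028.

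**Figure D5:**
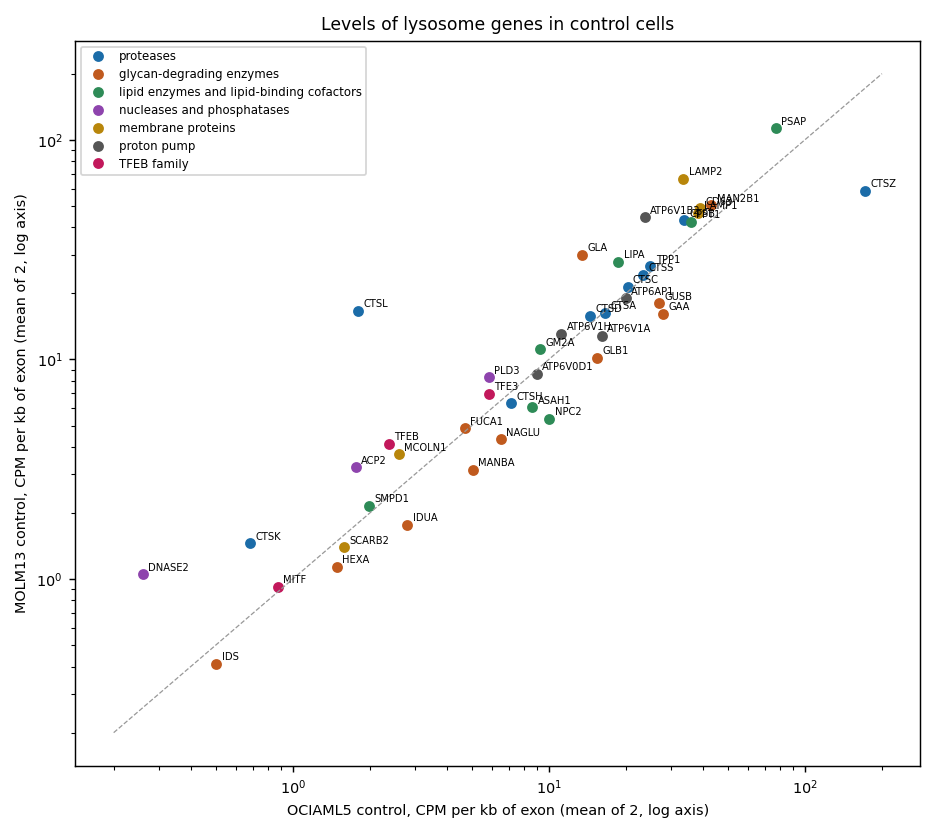
Level in CPM per kilobase (log axes) of each tested member in MOLM13 controls (y axis) and OCIAML5 controls of the PSPC1 experiment (x axis), means of 2 libraries, with a dashed line of equal level. GPNMB is left out because it had 0 counts in MOLM13 controls. CTSL lies far above the line (16.7 and 1.80 CPM per kb) and CTSZ below it (58.7 and 172).

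Related genes outside the list gave context, and the shares of all genes to set beside their counts are 27.6% higher and 29.6% lower in MOLM13, 27.6% and 28.6% in OCIAML5, and 29.5% and 30.9% after PU.1 knockdown. Of 24 tested autophagy genes, 18 rose and 3 fell in MOLM13 and 17 rose and 2 fell in OCIAML5 after PSPC1 knockdown, and of 25 tested after PU.1 knockdown 13 rose and 5 fell (75%, 70.8% and 52% higher). WIPI1, which binds the phosphoinositide of forming autophagosomes, rose by 2.02, 1.82 and 1.37 on the log2 scale in PSPC1 knockdown MOLM13, PSPC1 knockdown OCIAML5 and PU.1 knockdown OCIAML5. In the same order, TECPR1, a tethering protein of autophagosome fusion, rose by 0.88, 1.42 and 0.94. The cargo receptor SQSTM1 rose by 0.78, 0.46 and 1.08. GABARAPL1, an ATG8 homologue, rose by 0.71, 2.42 and 2.38. Of other lysosomal hydrolases, 14 of 25 rose and 3 fell in MOLM13, 13 of 25 rose and 4 fell in OCIAML5, and 10 of 24 rose and 5 fell after PU.1 knockdown (56%, 52% and 41.7% higher). CTSO, a cysteine protease (1.95 ± 0.18 in MOLM13) and ARSB, an arylsulfatase (1.56 ± 0.061 in OCIAML5), were among the higher ones, and the hyaluronidase HYAL2 fell in MOLM13 (−2.30 ± 0.31).

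Other membrane proteins and sorting receptors showed 12 higher and 6 lower of 24 in MOLM13, 10 and 6 of 24 in OCIAML5, and 10 and 6 of 25 after PU.1 knockdown (50%, 41.7% and 40% higher). NPC1, the membrane partner of NPC2, was lower in all 3, with log2 fold changes of −1.21, −1.39 and −0.33. OSTM1, a partner of the chloride transporter CLCN7, rose by 1.01, 1.26 and 0.91. TPCN1, an endolysosomal cation channel, had −2.30 ± 0.20 after PSPC1 knockdown and 1.77 ± 0.11 after PU.1 knockdown in OCIAML5. Of 12 other pump subunits, 5 rose and 2 fell in MOLM13, 7 rose and 2 fell in OCIAML5, and 3 rose and 6 fell after PU.1 knockdown (41.7%, 58.3% and 25% higher). ATP6V0B fell after PU.1 knockdown (−1.02 ± 0.053). Of 21 regulators of TFEB at the lysosome surface, 9 rose and 4 fell in MOLM13, 10 rose and 4 fell in OCIAML5, and 7 rose and 7 fell after PU.1 knockdown (42.9%, 47.6% and 33.3% higher), the last close to the shares of all genes. The Rag GTPase genes RRAGA (0.77 and 0.79) and RRAGC (0.65 and 0.76) rose in both PSPC1 knockdowns, and MTOR was higher in OCIAML5 after PSPC1 knockdown (0.63 ± 0.048) and lower after PU.1 knockdown (−1.05 ± 0.048).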

How the data were processed

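The deposited files hold raw counts per gene, in 1 table of 8 libraries for PSPC1 and 1 of 4 libraries for PU.1. The submitters' processing notes name GRCh38 and, with no roles, HTSeq 2.0.2, STAR 2.7.10a, Trim Galore 0.6.7 and DESeq2 1.36.0. Per the labels' protocols the kit was stranded. Neither annotation release nor strand setting is stated, so genes that overlap or have pseudogenes can share or lose counts. Counts were fitted in R 4.3.3 with edgeR 4.0.16 (filterByExpr, TMM, robust quasi-likelihood F tests), the PSPC1 table as 1 model of 4 groups (16457 genes and 4 degrees of freedom for the residuals), the PU.1 table by itself (16861 genes, 2), and the 8 OCIAML5 libraries joined for tests across experiments (17159 genes, 4). There were 7 comparisons, each adjusted by the Benjamini-Hochberg method over all genes tested. The biological coefficient of variation was 4.73%, 4.08% and 4.5%. Each fit was tested on simulated data. Libraries of a group differed by 2.61 to 4.96 times counting noise, so none was a repeat deposit.

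Members, lists and tests were chosen with earlier results of these data known. Per-library values were given for TFEB, TFE3 and MITF and, per comparison, for up to 6 members each way with the largest change among those that passed, averaged 5 CPM or more in the higher group and, for knockdowns, did not overlap their controls. From each related list up to 4 such genes could be named. Other members were chosen after their values were seen. A listed marker is not reported here by name. Gene positions and lengths are from GENCODE 29 on GRCh38, promoter windows from RefSeq on GRCh38.p14. Alternatives tried included RLE size factors, DESeq2 1.42.0, library size alone, no low-count filter, 1 CPM in 2 libraries, an adjusted p of 0.01, a 2-fold minimum, each library left out, a replicate block, and other sets of libraries. Comparing PSPC1 knockdown OCIAML5 cells with the other OCIAML5 controls, and counting members of at least 5 CPM, were added after seeing the data.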

Additional observations from a re-analysis of the deposited data

Results flagged for a closer look

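For 24 members the effect of PSPC1 knockdown differed between the lines in edgeR's test of the difference (log2 fold change in MOLM13 minus that in OCIAML5). The difference was positive for TPP1 (0.79), MANBA (0.75), PLD3 (0.73), TFEB (0.65), HEXA (0.61), GAA (0.59), GM2A (0.56), FUCA1 (0.54), GUSB (0.53), MAN2B1 (0.52), ASAH1 (0.44), PSAP (0.43), CTSZ (0.22) and LAMP1 (0.15). It was negative for CTSB (−0.25), ATP6V0D1 (−0.33), ATP6V1A (−0.37), ATP6V1B2 (−0.54), MCOLN1 (−0.69), TFE3 (−0.79), CTSC (−0.96), LIPA (−1.09) and CTSK (−1.66). GPNMB had a fitted difference of 8.095, which depends on the prior count because MOLM13 controls held 0 counts. It does not settle that the directions differed. The MOLM13 call of GPNMB was lost without any 1 of the 4 MOLM13 libraries, and its OCIAML5 fall was not called against the other controls (−0.79). The FUCA1 difference was no longer called whichever of the 8 libraries was left out, nor with DESeq2, library size alone or no low-count filter. LAMP1 was lost without any of the 4 MOLM13 libraries or either OCIAML5 knockdown library, with library size alone, with no low-count filter and with a replicate block (edgeR adjusted p = 0.052). MCOLN1 was lost without 3 of the libraries and CTSZ without 2. No group held enough libraries for a check of single outlying values.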

How the results depend on the processing

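The replicate numbers did not pair the libraries: deviations of same-numbered libraries correlated at 0.008 and 0.006 in the PSPC1 table and 0.005 in the PU.1 table. With a replicate block, MOLM13 had 29 members higher and 7 lower, OCIAML5 27 and 9, and PU.1 knockdown 23 and 15, and the lost knockdown call was DNASE2 in MOLM13 (0.81, edgeR adjusted p = 0.0519). With 1 library left out, members higher and lower ranged from 23 to 30 and 6 to 7 in MOLM13, 26 to 27 and 6 to 9 in OCIAML5, 22 to 24 and 14 to 15 after PU.1 knockdown, 12 to 14 and 8 to 9 for the difference between lines, 10 to 12 and 15 to 20 for PU.1 minus PSPC1, 19 to 20 and 11 to 12 between line controls, and 12 to 17 and 8 to 11 between the OCIAML5 control sets. A group left with 1 library was assumed to vary like the others. A 2-fold minimum gave 9 and 0, 7 and 1, 7 and 4, 1 and 2, 4 and 7, 4 and 2, and 0 and 2 in the same order. Library size alone gave 5 members lower in OCIAML5 after PSPC1 knockdown; after PU.1 knockdown it shifted the median of all genes by 0.15 and their calls to 6583 higher and 3995 lower (4981 and 5216 with TMM), and ATP6V1H turned to 0.148 (edgeR adjusted p = 0.0331). Against the other experiment's OCIAML5 controls, CTSD (−0.199), LAMP2 (−0.197), MAN2B1 (−0.429) and MCOLN1 (−0.553) changed direction after PSPC1 knockdown. The cause of these changes was not tested. All other alternatives kept each count within 1.5 times. With 2 libraries per group and 15.4 M counts in the shallowest, differences in transcripts of a few CPM are poorly resolved.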
